A study of Chlorocebus sabaeus with 45 samples.

Results

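The genes described here encode the machinery of mitosis: 56 genes taken as a fixed list and sorted by the structure they serve, namely condensin, the spindle checkpoint, the mitotic kinases, the kinesins, the centromere and kinetochore, the cyclins and anaphase regulators, the passenger, spindle and cytokinesis proteins, and the proliferation markers with FOXM1. A row for 55 of the 56 was found among the 33994 genes of the tables, and all 55 passed the filter on low values, as did 18753 of all listed genes. SPC24, the partner of SPC25 in the NDC80 complex, was not analysed here. The members were grouped by function, with earlier results of these data known.

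Whole blood was drawn from 15 wild-born juvenile male vervet monkeys (Chlorocebus sabaeus) of St. Kitts, the same 15 animals on days 0, 3 and 14, giving 45 RNA-seq libraries with 15 per day. The days are those of the sample labels, and the other texts of the study do not all give the same days for these RNA samples. Day 0 was the field sample, taken at capture under ketamine and xylazine. Days 3 and 14 were taken in a quarantine facility after relocation into individual housing, which the study used as a psychosocial stressor, under dexmedetomidine and midazolam. Every difference from day 0 therefore carries the move, the housing, the sedative, the earlier blood draws and the passing of time together. These cannot be told apart. Days 3 and 14 share the same setting, but more blood had been drawn by day 14. Libraries had been depleted of ribosomal and globin RNA.

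As background, a dividing cell first packs its chromosomes with condensin, a ring built on the SMC2 and SMC4 ATPases that comes in a form I (with NCAPH, NCAPG and NCAPD2) and a form II (with NCAPH2, NCAPG2 and NCAPD3). Kinetochores built on the centromere then catch spindle microtubules, the checkpoint proteins hold the cell until every chromosome is attached, and the anaphase-promoting complex with CDC20 releases the block by marking securin (PTTG1) and the cyclins for destruction. Most leukocytes in blood, all platelets and nearly all red cells are not dividing. Activated lymphocytes, plasmablasts and erythroid or myeloid precursors are the usual source of such transcripts in blood. In bulk RNA, more dividing cells and more mitotic RNA per cell cannot be told apart.

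Libraries held 13216275 to 31469332 fragments on genes. The library of animal 9 on day 0 and that of animal 4 on day 14 stood apart, with 30752 and 31402 genes above 0 against 26792 or fewer in the other 43 libraries, and 7 libraries listed over 24000 genes (5 of day 0, 1 of day 3 and 1 of day 14). Without scaling between libraries the median of all tested genes fell by 0.36 on the log2 scale from day 0 to day 14, so all levels below are FPKM (fragments per kilobase of gene, scaled to library size) after TMM scaling, a factor per library that brings the bulk of genes to a common level. The median of all tested genes was then at −0.05 for day 14 vs. day 0, with 0.01 for the change by day 3. Fold changes are differences of log2(scaled FPKM + 0.1) fitted with limma across all 45 libraries, given ± SE, and adjusted p-values are Benjamini-Hochberg values over the 18753 genes. A gene is called changed below an adjusted p of 0.05.

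By day 14 the mitotic genes had risen nearly as a body. On day 14 vs. day 0, 47 of the 55 members were up-regulated and 0 were down-regulated (limma, 0 also at an unadjusted p under 0.05), where 16.8% of all tested genes were up-regulated and 19.3% down-regulated. The median fold change of the members was 0.91 on the log2 scale, from −0.12 for PLK1 to 1.97 for BUB1B. On day 3 vs. day 0, 12 members were up-regulated and 0 down-regulated (29 and 0 at an unadjusted p under 0.05), against 5.84% and 6.22% of all tested genes, with a member median of 0.39. Without the 7 libraries of over 24000 genes, 0 members were up on day 3 (limma, lowest adjusted p = 0.0612), against 1.51% of all tested genes. From day 3 to day 14, with the setting held, 30 members were up-regulated and 0 down-regulated (34 and 0 at an unadjusted p under 0.05), against 7.1% and 7.27% of all tested genes, with a member median of 0.54. Without scaling between libraries the member medians were 0.35 on day 3 vs. day 0, then 0.55 for day 14 vs. day 0 and 0.19 for day 14 vs. day 3.

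**Figure D1:**
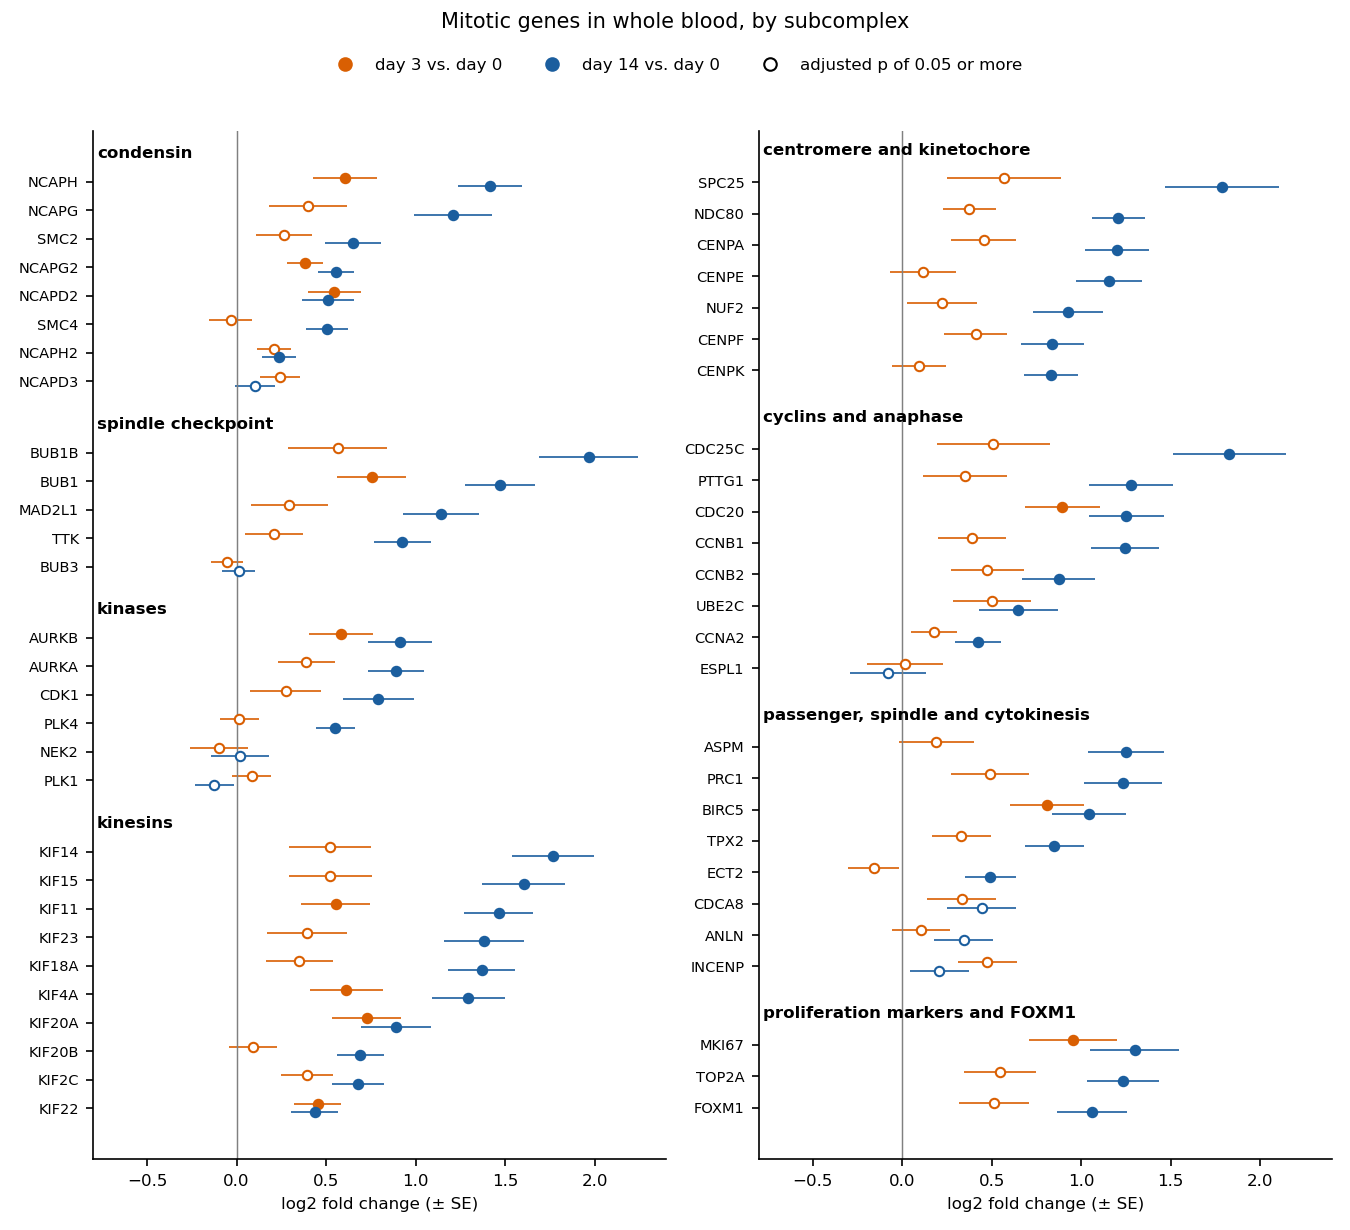
Log2 fold change (x axis, ± SE, n = 15 animals a day) of the 55 mitotic genes in their 8 groups, for day 3 vs. day 0 in orange and day 14 vs. day 0 in blue, with filled circles for an adjusted p under 0.05. On day 14, 47 genes are filled and lie to the right of 0; among these NCAPH2 is the gene whose sign turns without scaling between libraries, and NCAPD3, BUB3, PLK1, NEK2, ESPL1, INCENP, CDCA8 and ANLN are open.

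The rise was broad across animals but not equal in them. Within an animal, the median change of the 55 members from day 0 to day 14 ran from −0.07 in animal 10 to 1.94 in animal 9, was 1.02 in the middle animal and lay above 0 in 14 of 15 animals (13 without scaling between libraries). On day 3 it ran from −0.18 to 1.08 and lay above 0 in 11 of 15. Counting genes in place of medians, 9 members were higher on day 14 in all 15 animals, 22 in 14 animals and 12 in 13 animals. For no member (0 of 55) did the lowest day 14 value exceed the highest day 0 value, a separation that 0.0107% of all tested genes showed.

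On day 14, 7 of the 8 condensin genes were up-regulated with a list median of 0.53, the lowest of the 8 groups, and on day 3 it was 3 of 8. The day 14 count was 4 when the RNA integrity number was a covariate and 2 without scaling between libraries (median 0.15). With that covariate and animals as a replicate block, the kinase median was lower (0.43, against 0.45 for condensin). The form I subunits rose relative to their form II counterparts. NCAPH, the kleisin that closes the condensin I ring, was measured on day 0 at a lowest, median and highest FPKM of 1.32, 1.84 and 3.71, on day 3 at 1.83, 2.83 and 6.56, and on day 14 at 2.46, 5.66 and 9.09. It was higher on day 14 in 15 of 15 animals although the ranges of the days overlapped, a change of 1.42 ± 0.18 (adjusted p = 4.14e-07). Its rise was already called on day 3 (0.61 ± 0.18, adjusted p = 0.0208, and 0.0612 without animal 11).

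NCAPH2, the kleisin of condensin II, stood far higher at the outset, at 7.48, 14.2 and 15.9 FPKM on day 0, 11.6, 15.7 and 20.4 on day 3, and 10.4, 16.3 and 18.6 on day 14. These ranges overlapped, with the day 14 median above the highest day 0 value and 14 of 15 animals higher than on day 0. Its day 14 change of 0.24 ± 0.10 (adjusted p = 0.0465) was the weakest call among the members: it turned to −0.15 without scaling between libraries, and leaving out any 1 of 10 animals ended the call, with a highest adjusted p of 0.0935 (animal 1). The ratio of NCAPH to NCAPH2 does not depend on scaling, since it is taken within a library. Its log2 mean went from −2.73 ± 0.55 (SD, n = 15) on day 0 to −1.54 ± 0.72 on day 14, a change of 1.19 ± 0.84 (SD) that was upward in 14 of 15 animals (exact sign-flip permutation test, two-sided, p = 0.000305, adjusted p = 0.00286 over 39 tests). By day 3 this ratio had risen by 0.40 ± 0.58 (SD, 11 of 15 animals, exact permutation test, adjusted p = 0.0363). Leaving out any 1 of 10 animals ended that day 3 call (0.0669 without animal 9). For this and the other ratios below, 13 pairs of members were tested in 3 comparisons.

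NCAPG, a HEAT-repeat subunit of condensin I, was at 1.07, 2.78 and 5.9 FPKM on day 0 and at 1.86, 7.01 and 11.2 on day 14, a change of 1.21 ± 0.22 (adjusted p = 3.64e-05) with 14 of 15 animals higher. NCAPG2, its condensin II counterpart, was at 2.32, 3.15 and 5.37 on day 0 and at 3.63, 5.11 and 5.81 on day 14, a change of 0.56 ± 0.10 (adjusted p = 4.36e-05). The highest day 14 level of NCAPG2 was thus close to its highest day 0 level, while the highest level of NCAPG rose well past its own. The log2 ratio of NCAPG to NCAPG2 rose from −0.27 ± 0.60 (SD) on day 0 to 0.39 ± 0.54 on day 14 (change 0.66 ± 0.86, upward in 11 of 15 animals, exact permutation test, adjusted p = 0.0235), and most of that came after day 3, where the change was 0.02 ± 0.57 (adjusted p = 0.907).

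The third pair of counterparts had moved by day 3, as had NCAPH to NCAPH2. NCAPD2 of condensin I was at 2.03, 4.48 and 7.46 FPKM on day 0, 4.97, 6.16 and 13.2 on day 3, and 3.94, 6.34 and 10.02 on day 14. Its change was 0.55 ± 0.15 on day 3 (adjusted p = 0.0121) and 0.51 ± 0.15 on day 14 (adjusted p = 0.00558), neither called without scaling between libraries (0.51, adjusted p = 0.0895, and 0.12, adjusted p = 0.591), with −0.04 ± 0.15 between day 3 and day 14 (adjusted p = 0.895). NCAPD3 of condensin II was at 3.64, 7.07 and 11.9 on day 0 and at 5.75, 7.79 and 9.72 on day 14, and it was the condensin gene with the highest adjusted p (0.10 ± 0.11, adjusted p = 0.491). Taken as NCAPD2 to NCAPD3, the log2 ratio rose by 0.30 ± 0.39 (SD) by day 3 (adjusted p = 0.024) and by 0.41 ± 0.35 by day 14 (adjusted p = 0.00436, upward in 13 of 15 animals, exact permutation test). All 3 ratios of condensin I to condensin II were therefore higher on day 14 than on day 0.

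Both core ATPases were called on day 14 after scaling, and neither was without scaling between libraries (SMC4 0.11, adjusted p = 0.567, and SMC2 0.26, adjusted p = 0.303). SMC4 was the most abundant condensin gene, at 15.1, 23.9 and 40.8 FPKM on day 0, 13.2, 23.4 and 32.4 on day 3, and 23.9, 34.2 and 46.2 on day 14. It stood level on day 3 (−0.03 ± 0.12, adjusted p = 0.901) and rose afterwards, by 0.54 ± 0.12 from day 3 to day 14 (adjusted p = 0.0044) and by 0.50 ± 0.12 from day 0 (adjusted p = 0.000749). SMC2, at 2.24, 5.48 and 9.73 on day 0 and 6.01, 8.84 and 13.4 on day 14, changed by 0.65 ± 0.16 (adjusted p = 0.00118). SMC2 relative to SMC4 was higher on day 3 by 0.30 ± 0.32 (SD; exact permutation test, adjusted p = 0.0123, 13 of 15 animals) and did not pass on day 14 (0.15 ± 0.40, adjusted p = 0.254).

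**Figure D2:**
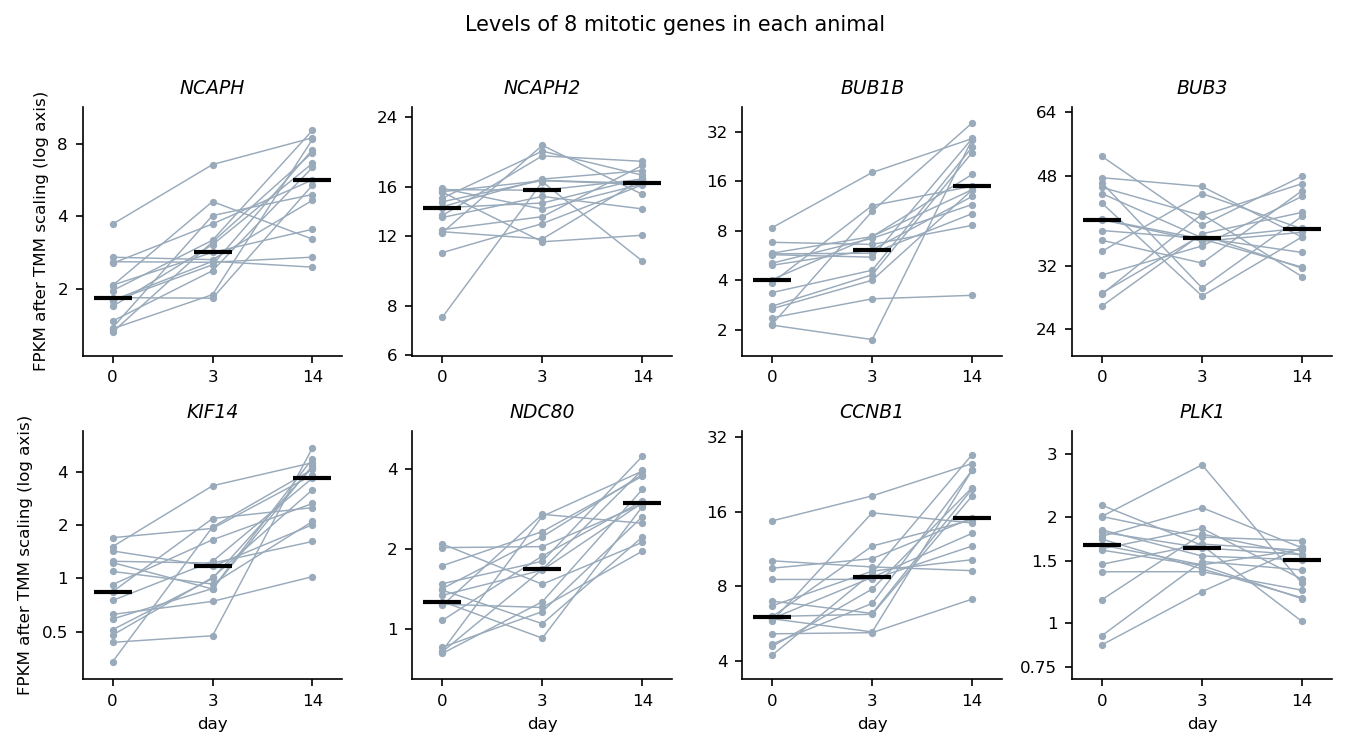
FPKM after TMM scaling (log y axis) of 8 mitotic genes on days 0, 3 and 14, with a line for each of the 15 animals and a black bar at each day's median. NCAPH, BUB1B, KIF14, NDC80 and CCNB1 climb in most animals, with BUB1B medians of 4.04, 6.12 and 14.9. The medians of BUB3 and PLK1 stay nearly level, and NCAPH2 moves little and turns sign without scaling between libraries.

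Of the spindle checkpoint genes, 4 of 5 were up-regulated on day 14 (list median 1.14) and 1 of 5 on day 3. BUB1, the checkpoint kinase at the kinetochore, was at 0.756, 1.44 and 3.59 FPKM on day 0, 1.11, 2.54 and 4.73 on day 3, and 2.04, 4.41 and 6.12 on day 14. The day 14 median lay above the highest day 0 value. It rose by 0.75 ± 0.19 on day 3 (adjusted p = 0.00902) and by 1.47 ± 0.19 on day 14 (adjusted p = 7.41e-07), and was higher in 14 of 15 animals on day 14. BUB1B (BubR1), which holds CDC20 in the inhibitory complex, was at 2.13, 4.04 and 8.35 on day 0, 1.74, 6.12 and 18.1 on day 3, and 3.24, 14.9 and 36.1 on day 14. It had the largest fold change of the 55 members on day 14, 1.97 ± 0.28 (3.91-fold, adjusted p = 1.53e-06), with 15 of 15 animals higher, and most of it fell between day 3 and day 14 (1.40 ± 0.28, adjusted p = 0.00232).

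BUB3, the WD-repeat protein that carries both BUB kinases and also has roles outside mitosis, was the most abundant of the 55 members and did not move. It was at 26.7, 39.4 and 52.4 FPKM on day 0, 27.9, 36.3 and 45.7 on day 3, and 30.5, 37.8 and 47.9 on day 14, with a day 14 change of 0.01 ± 0.09 (adjusted p = 0.936) that was −0.38 without scaling between libraries. The log2 ratio of BUB1 to BUB3 rose from −4.63 ± 0.68 (SD) to −3.16 ± 0.52 (change 1.47 ± 0.91, 14 of 15 animals, exact permutation test, adjusted p = 0.00286), and was already higher on day 3 by 0.81 ± 0.73 (adjusted p = 0.00625). BUB1 relative to BUB1B fell by 0.49 on day 14 (SD 0.67, lower in 11 of 15 animals, exact permutation test, adjusted p = 0.0316), a call that leaving out any 1 of 6 animals ended (adjusted p up to 0.0566, without animal 9). MAD2L1 (MAD2), the protein that closes around CDC20, changed 2.21-fold and TTK (MPS1), the kinase at the top of the checkpoint, 1.9-fold on day 14, both called.

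Of the mitotic kinases, 4 of 6 were up-regulated on day 14 (list median 0.67) and 1 of 6 on day 3. The day 14 count was 2 up and 1 down without scaling between libraries. AURKA, the centrosome and spindle pole kinase, was at 1.56, 2.39 and 4.79 FPKM on day 0 and at 2.41, 4.48 and 7.69 on day 14, a change of 0.89 ± 0.16 (adjusted p = 2.87e-05) with 12 of 15 animals higher. AURKB, the kinase of the passenger complex, was lower in level and changed 1.88-fold by day 14. Its day 3 call (0.58 ± 0.18, adjusted p = 0.0255) was lost without animal 6 (0.0612) or animal 12 (0.0579). The ratio of AURKA to AURKB did not pass in any of the 3 comparisons (change on day 14 −0.05 ± 0.73, SD, exact permutation test, adjusted p = 0.809). CDK1, the engine of mitotic entry, changed 1.73-fold by day 14 and was called.

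The polo-like kinases went separate ways. PLK4, which starts centriole duplication, was at 3.15, 4.1 and 5.56 FPKM on day 0, 2.06, 4.28 and 5.7 on day 3, and 4.82, 6.39 and 7.66 on day 14, a rise of 0.55 ± 0.11 (adjusted p = 9.36e-05) in 14 of 15 animals, which was 0.17 and not called without scaling between libraries (adjusted p = 0.379). PLK1, which acts from mitotic entry to cytokinesis, was at 0.869, 1.66 and 2.15 on day 0, 1.23, 1.63 and 2.8 on day 3, and 1.01, 1.51 and 1.71 on day 14, with 4 of 15 animals higher on day 14 than on day 0 (−0.12 ± 0.11, adjusted p = 0.385). The log2 ratio of PLK1 to PLK4 fell by 0.66 (SD 0.52, lower in 13 of 15 animals) by day 14 and by 0.73 (SD 0.64, lower in 14 of 15) from day 3 to day 14, with an adjusted p of 0.00286 for each by the exact permutation test. Without scaling between libraries PLK1 was called down on day 14 vs. day 0, at −0.49. In that fit 41.8% of all tested genes were down, with a median of −0.36. NEK2, the centrosome-splitting kinase, was at 1.59, 5.9 and 7.2 on day 0 and at 2.98, 4.97 and 7.64 on day 14 (0.02 ± 0.16, adjusted p = 0.934, and −0.37 without scaling between libraries), and 5 of 15 animals were higher.

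The kinesins, motors that build the spindle and move chromosomes, had 10 of 10 genes up-regulated on day 14 (9 when the RNA integrity number was a covariate and 7 without scaling between libraries), with the highest list median of the 8 groups (1.33) and a range from 0.44 to 1.77. On day 3, 4 of 10 were called (1 when the RNA integrity number was a covariate). KIF14, a midbody motor of cytokinesis, was at 0.338, 0.84 and 1.7 FPKM on day 0, 0.474, 1.17 and 3.33 on day 3, and 1.02, 3.68 and 5.45 on day 14, a change of 1.77 ± 0.23 (3.4-fold, adjusted p = 7.19e-07) with 15 of 15 animals higher. KIF11 (Eg5), the motor that pushes the spindle poles apart, was at 0.852, 1.66 and 3.32 on day 0 and at 2.24, 4.92 and 8.19 on day 14 (1.46 ± 0.19, adjusted p = 7.19e-07). Its day 3 change of 0.55 ± 0.19 sat at the threshold (adjusted p = 0.0493), and leaving out any 1 of 11 animals took it over (0.121 without animal 9). KIF15, which backs up KIF11 on the spindle, was at 0.735, 1.6 and 3.47 on day 0 and at 1.52, 5.19 and 10.01 on day 14 (1.60 ± 0.23, adjusted p = 2.17e-06).

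From day 0 to day 14 the ratio of KIF11 to KIF15 did not pass (change −0.14 ± 0.41, SD, exact permutation test, adjusted p = 0.292). From day 3 to day 14 it fell by 0.17 (SD 0.26, lower in 12 of 15 animals, exact permutation test, adjusted p = 0.0393), a call that leaving out any 1 of 12 animals ended (0.0787 without animal 8). KIF4A was called on day 3 as well, and leaving out any 1 of 10 animals ended that call (adjusted p up to 0.102, without animal 11). KIF18A, KIF23 and KIF4A, which shorten microtubules or bundle the midzone, changed 2.58-fold, 2.6-fold and 2.45-fold on day 14. KIF22, a chromosome-arm motor, had the highest adjusted p of the kinesins. It was at 1.54, 2.8 and 4.49 on day 0, 2.85, 3.63 and 6.32 on day 3, and 2.16, 3.75 and 5.04 on day 14 (0.44 ± 0.13 on day 14, adjusted p = 0.00788, and 0.05 without scaling between libraries, adjusted p = 0.825, after 0.45 ± 0.13 on day 3, adjusted p = 0.0183, and 0.217 without scaling).

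KIF20A, a midzone motor, was among the early risers. It was at 0.388, 0.784 and 1.72 FPKM on day 0, 0.878, 1.34 and 4.21 on day 3, and 0.824, 1.64 and 2.49 on day 14, with changes of 0.73 ± 0.19 on day 3 (adjusted p = 0.0116) and 0.89 ± 0.19 on day 14 (adjusted p = 0.000378). Its relative KIF20B was at 2.97, 5.58 and 6.59 on day 0, 2.44, 5.83 and 7.88 on day 3, and 5.83, 8.16 and 11.4 on day 14, level on day 3 (0.09 ± 0.13, adjusted p = 0.722) and up by day 14 (0.69 ± 0.13, adjusted p = 7.02e-05). The ratio of KIF20A to KIF20B was higher on day 3 by 0.64 ± 0.99 (SD, 9 of 15 animals, exact permutation test, adjusted p = 0.0471) and did not pass on day 14 (0.23 ± 0.95, adjusted p = 0.452). The day 3 call was lost when any 1 of 10 animals was left out (0.0941 without animal 8).

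All 7 centromere and kinetochore genes measured were up-regulated on day 14 (list median 1.15, range 0.83 to 1.79), 0 of 7 on day 3 (limma, 3 at an unadjusted p under 0.05, and 0 also with animals as a replicate block), and 6 of 7 between day 3 and day 14. NDC80, the microtubule-binding arm of the outer kinetochore, was at 0.811, 1.27 and 2.09 FPKM on day 0, 0.926, 1.68 and 2.71 on day 3, and 1.97, 2.99 and 4.48 on day 14. Its lowest day 14 value came close to its highest day 0 value, 15 of 15 animals were higher, and it had the lowest adjusted p of all 55 members (1.21 ± 0.15, adjusted p = 2.86e-07). NUF2, which pairs with NDC80 in that arm, was at 0.575, 1.14 and 2.4 on day 0 and at 1.15, 2.24 and 3.33 on day 14 (0.92 ± 0.20, adjusted p = 0.00026, the highest in the group). The log2 ratio of NDC80 to NUF2 rose by 0.28 ± 0.39 (SD, 12 of 15 animals, exact permutation test, adjusted p = 0.0363), and leaving out any 1 of 7 animals ended that call (0.0671 without animal 2).

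SPC25, the inner end of the same complex, changed 3.45-fold, with a day 14 range of 0.619 to 9.07 FPKM against 0.276 to 3.97 on day 0, and 15 of 15 animals were higher. CENPA, the histone variant that marks the centromere, changed 2.3-fold and CENPK, of the inner kinetochore, 1.78-fold. CENPE, a kinetochore motor, was at 1.1, 2.4 and 3.56 on day 0, 0.82, 2.69 and 4.67 on day 3, and 2.21, 5.7 and 7.11 on day 14, with nearly all of its change after day 3 (0.12 ± 0.18 on day 3, adjusted p = 0.746, and 1.15 ± 0.18 on day 14, adjusted p = 7.92e-06). CENPF, which recruits dynein regulators, was at 2.53, 3.62 and 6.68 on day 0, 2.02, 5.67 and 9.61 on day 3, and 4.3, 7.01 and 11.1 on day 14 (0.41 ± 0.18 on day 3, adjusted p = 0.124, and 0.84 ± 0.18 on day 14, adjusted p = 0.000234). Their log2 ratio, CENPE to CENPF, fell by 0.29 (SD 0.39, lower in 10 of 15 animals, adjusted p = 0.024) by day 3 and then rose by 0.61 ± 0.43 (SD, 13 of 15 animals, exact permutation test, adjusted p = 0.00286) by day 14.

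Among the cyclins and anaphase regulators, 7 of 8 were up-regulated on day 14 (list median 1.06, and 4 of 8 when the RNA integrity number was a covariate) and 1 of 8 on day 3. CCNB1, the main mitotic cyclin, was at 4.22, 6.03 and 14.7 FPKM on day 0, 5.19, 8.69 and 18.5 on day 3, and 7.1, 15.1 and 27.2 on day 14, a change of 1.25 ± 0.19 (2.37-fold, adjusted p = 3.87e-06). The day 14 median passed the highest day 0 value, and 14 of 15 animals were higher. CCNB2 was at 0.901, 2.04 and 4.14 on day 0 and at 1.88, 4.21 and 5.4 on day 14 (0.87 ± 0.20, adjusted p = 0.000826), and its day 3 change of 0.48 ± 0.20 was called with animals as a replicate block (adjusted p = 0.0399) but not without (0.124). CCNB1 relative to CCNB2 rose by 0.36 ± 0.51 (SD, 11 of 15 animals, exact permutation test, adjusted p = 0.0363) by day 14, a call that leaving out any 1 of 9 animals ended (0.0669 without animal 9), and by 0.45 ± 0.54 from day 3 to day 14 (adjusted p = 0.0198).

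CDC25C, the phosphatase that switches on CDK1, had the second largest change of the members at 3.55-fold, its median FPKM being 0.788, then 1.11 and 3.27. CDC20, the activator of the anaphase-promoting complex, went from a median of 1.29 to 2.34 by day 3 and 3.42 by day 14, and 13 of 15 animals were higher on day 3. PTTG1 (securin), the inhibitor of separase, changed 2.43-fold by day 14. ESPL1, separase itself, did not follow its inhibitor: it was at 0.175, 0.393 and 1.46 on day 0, 0.217, 0.439 and 1.05 on day 3, and 0.228, 0.427 and 0.909 on day 14 (−0.08 ± 0.21, adjusted p = 0.802, 6 of 15 animals higher). The ratio of PTTG1 to ESPL1 was not tested. CCNA2, the cyclin of S phase and mitotic entry, and UBE2C, an E2 enzyme of the anaphase-promoting complex, changed 1.34-fold and 1.57-fold on day 14. The UBE2C call was lost without animal 9 (adjusted p = 0.057) or animal 12 (0.0551).

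Of the 8 passenger, spindle and cytokinesis genes, 5 were up-regulated on day 14 (list median 0.67) and 1 on day 3. ASPM, a spindle pole protein, was at 1.66, 3.00 and 5.94 FPKM on day 0, 0.872, 3.5 and 8.98 on day 3, and 3.71, 7.69 and 16.1 on day 14 (1.25 ± 0.21, adjusted p = 1.54e-05, 14 of 15 animals). PRC1, the midzone bundler, changed 2.35-fold with 15 of 15 animals higher, TPX2, the AURKA activator, 1.8-fold, and ECT2, which activates RhoA at the cleavage furrow, 1.41-fold. Of the 4 measured parts of the chromosomal passenger complex, all had a day 3 change above 0 (BIRC5 0.81, AURKB 0.58, INCENP 0.47 and CDCA8 0.33), and their differences from each other were not tested. BIRC5 (survivin) went from a median of 2.07 to 3.47 by day 3 and 4.42 by day 14 (2.06-fold, called on both days) and AURKB was called on both days. INCENP and CDCA8 (borealin) were called on neither day, and each was close enough to the threshold for some alternatives to call it.

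INCENP, the scaffold of that complex, was at 0.457, 0.749 and 1.61 FPKM on day 0, 0.648, 1.23 and 1.86 on day 3, and 0.593, 0.928 and 1.84 on day 14. Its day 3 change was 0.47 ± 0.17 (adjusted p = 0.0512, 0.00641 with animals as a replicate block and 0.0338 with voom on the fragments) and its day 14 change 0.21 ± 0.17 (adjusted p = 0.346, and −0.15 without scaling between libraries). CDCA8 was the least abundant member, at 0.0727 to 0.477 on day 0 with as few as 3 fragments in a library (on day 3), and its day 14 change was not called (adjusted p = 0.0672), but passed with the replicate block (0.0431) and, in a fit without that block, when the libraries of animal 9 on day 0 and animal 4 on day 14 were left out. ANLN (anillin), the scaffold of the contractile ring, was at a median of 1.51 on day 0 and 2.36 on day 14 (1.27-fold, adjusted p = 0.096).

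All 3 genes of the last group were up-regulated on day 14 (list median 1.23). MKI67 (Ki-67), the surface coat of mitotic chromosomes and the usual stain for cycling cells, was at 0.954, 2.76 and 4.98 FPKM on day 0, 2.71, 4.01 and 12.4 on day 3, and 1.82, 5.99 and 12 on day 14. Its day 3 change of 0.95 ± 0.25 (adjusted p = 0.0096, 14 of 15 animals) was the largest of the 55 on that day, and by day 14 it stood at 1.30 ± 0.25 (adjusted p = 6.79e-05, 15 of 15 animals). TOP2A (topoisomerase II alpha) was at 1.66, 3.43 and 8.3 on day 0, 1.88, 5.82 and 8.97 on day 3, and 3.14, 8.9 and 11.3 on day 14 (1.23 ± 0.20, adjusted p = 1.08e-05), and its day 3 change of 0.55 was called with animals as a replicate block (adjusted p = 0.0298) and not without (0.0673). FOXM1, the transcription factor that drives many of these genes, was low throughout, with medians of 0.314, 0.513 and 0.824 FPKM in day order (2.08-fold).

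Members reached their day 14 level at different rates. For the 47 members called on day 14, the day 3 change was set against the day 14 change as a description, since both share the day 0 libraries. The day 3 change came to a median of 37.8% of the day 14 change. It exceeded 60% for 10 members: AURKB, NCAPG2, CDC20, MKI67, UBE2C, BIRC5, KIF20A, NCAPH2, KIF22 and NCAPD2. It was under 25% for 9 members: ECT2, SMC4, PLK4, CENPE, CENPK, KIF20B, ASPM, TTK and NUF2. Both sets cut across the groups: condensin, kinesin, kinase and passenger group genes are in each, and timing was not tested between groups. These percentages are those after scaling and depend on it. Without scaling between libraries the member medians were 0.35 on day 3 and 0.55 on day 14, against 0.39 and 0.91 with it.

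**Figure D3:**
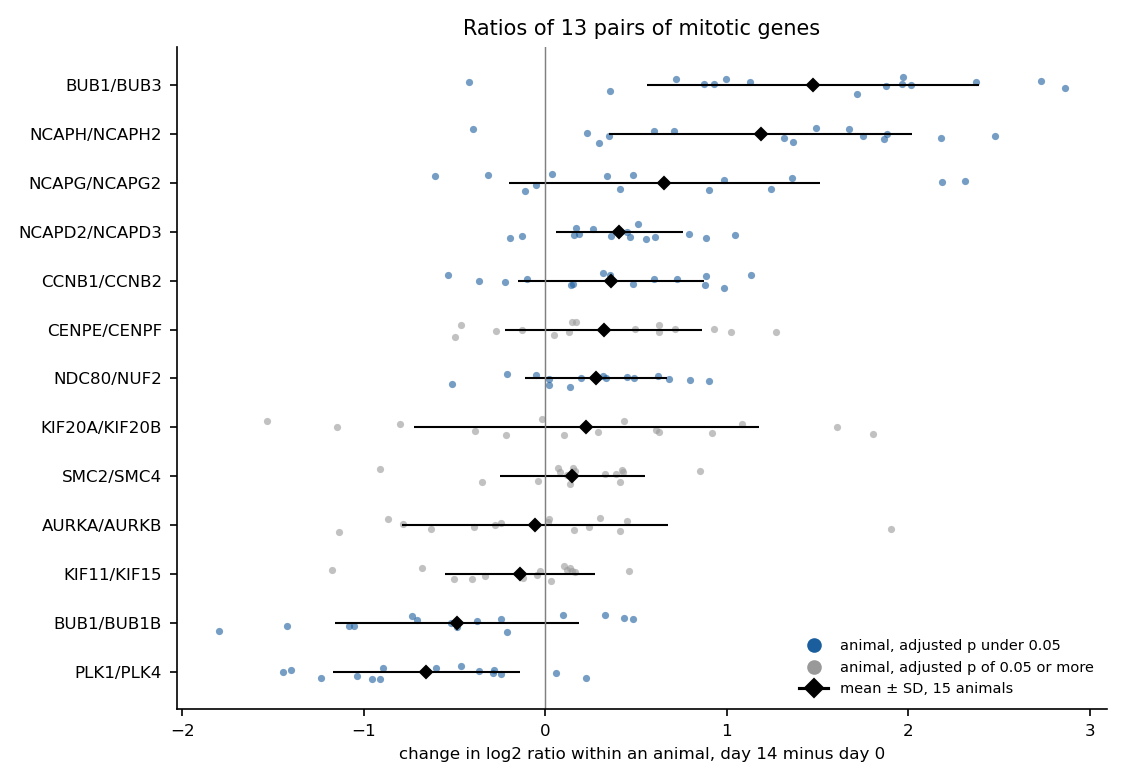
Change in the log2 ratio of 13 pairs of members from day 0 to day 14 within an animal (x axis), with a point per animal, in blue where the exact sign-flip test passed after adjustment over 39 tests, and a diamond with a bar for the mean ± SD of 15 animals. BUB1 to BUB3 (1.47) and NCAPH to NCAPH2 (1.19) lie farthest to the right and PLK1 to PLK4 (−0.66) farthest to the left.

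Ratios changed in 6 of 13 pairs between day 0 and day 3, in 8 of 13 between day 0 and day 14, and in 8 of 13 between day 3 and day 14. As each ratio is taken inside a library, these changes carry no scaling between libraries. In the plot of ratios by animal, BUB1 to BUB3 and NCAPH to NCAPH2 are the pairs with the largest shifts and 14 of 15 animals on the same side. On day 14 vs. day 0 the count was 5 without animal 3 and 5 without animal 14, where BUB1 to BUB1B, CCNB1 to CCNB2 and NDC80 to NUF2 dropped out.

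Genes of the same processes outside the list were examined next. Of 111 further mitotic genes, 67 rose and 4 fell on day 14 (median 0.60), 13 and 4 on day 3 (median 0.23), and 38 and 3 between day 3 and day 14. Of all tested genes 16.8% rose and 19.3% fell on day 14, 5.84% and 6.22% on day 3, and 7.1% and 7.27% between day 3 and day 14. Without scaling between libraries the day 14 vs. day 0 counts were 46 and 21 (median 0.23), and those from day 3 to day 14 were 22 and 18 (median −0.05). All tested genes were then 7.79% up and 41.8% down on day 14 vs. day 0 (median −0.36). From day 3 to day 14 they were 3.23% up and 35.2% down (median −0.35). By list, the day 14 vs. day 0 counts were then 14 up and 3 down of 32 for the kinetochore, 20 up and 5 down of 32 for the spindle, midzone and cytokinesis, 6 up and 3 down of 16 for kinases and phosphatases, 4 up and 7 down of 14 for cohesin, and 2 up and 3 down of 17 for the anaphase-promoting complex. The inner and outer kinetochore held 25 of 32 up and 0 down on day 14 (0 down also at an unadjusted p under 0.05). Its lowest adjusted p-values were those of ZWILCH of the RZZ complex (0.94 ± 0.12, adjusted p = 8.4e-07) and the scaffold KNL1 (1.03 ± 0.14, adjusted p = 1.38e-06). The spindle, midzone and cytokinesis list held 22 of 32 up and 0 down (2 down at an unadjusted p under 0.05). The lowest adjusted p-values there were those of citron kinase, CIT (1.68 ± 0.23, adjusted p = 1.31e-06), and DLGAP5 (1.69 ± 0.24, adjusted p = 2.13e-06). Mitotic kinases and phosphatases held 8 of 16 up and 2 down. MASTL (Greatwall) rose from a median of 1.97 FPKM to 7.69 (1.85 ± 0.27, adjusted p = 2.23e-06), while CDC14A, a phosphatase, fell from 35 to 21.7 in 15 of 15 animals (−0.66 ± 0.09, adjusted p = 7.19e-07) and PLK3 fell by 0.39 (SE 0.09, adjusted p = 0.000776).

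Cohesin and the anaphase-promoting complex also serve cells outside mitosis. Of 14 cohesin genes and regulators, 4 were up and 2 down on day 14 with a median of 0.07, against 16.8% and 19.3% of all tested genes. Those that rose included the shugoshin SGO2 (1.33 ± 0.17, adjusted p = 7.19e-07) and the acetyltransferase ESCO2 (1.12 ± 0.16, adjusted p = 1.53e-06), while the loader NIPBL (−0.33 ± 0.09, adjusted p = 0.00311) and PDS5B (−0.21 ± 0.08, adjusted p = 0.0331) fell. Of the 17 genes of the anaphase-promoting complex list, 8 were up and 0 down (9 not called, 1 of them lower at an unadjusted p under 0.05) with a median of 0.24. The lowest adjusted p-values were those of the CDH1 coactivator FZR1 (1.15 ± 0.20, adjusted p = 3.01e-05) and the subunit ANAPC16 (0.76 ± 0.16, adjusted p = 0.000321). Without scaling between libraries the median of the cohesin list was −0.32 and that of the anaphase-promoting complex list −0.15. The median of all tested genes was then −0.36, against −0.05 after scaling. The sign of both list medians thus turned with the scaling, while all tested genes moved down as well.

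**Figure D4:**
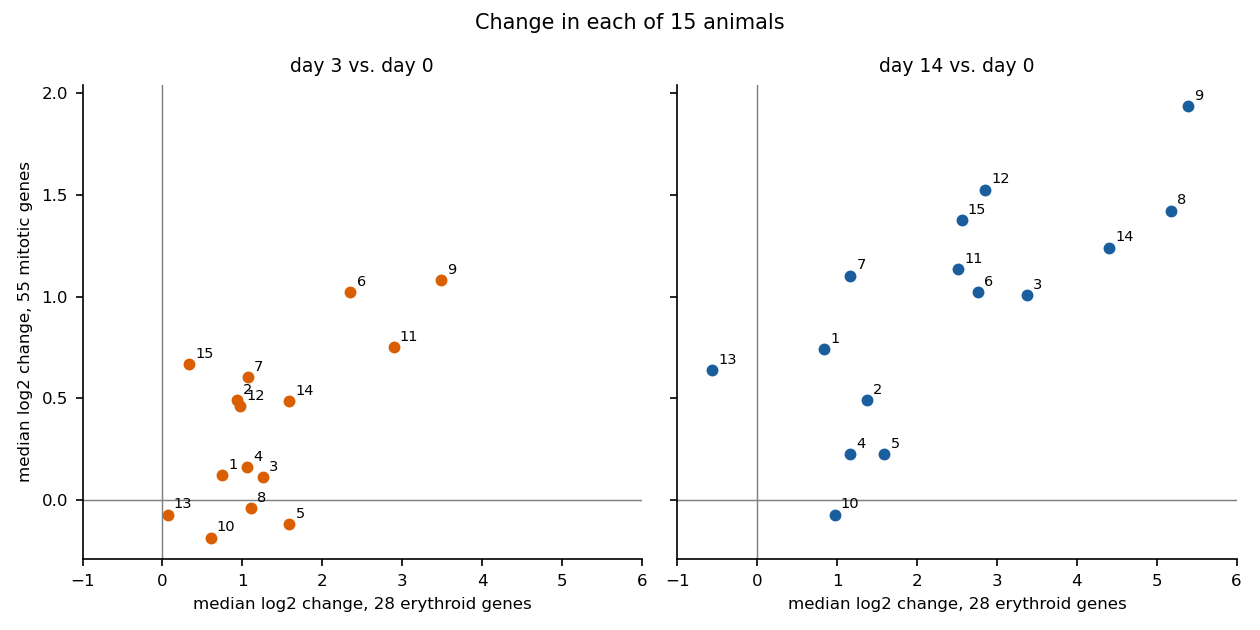
Median log2 change of the 55 mitotic genes (y axis) against that of 28 erythroid genes (x axis) in each of the 15 animals, numbered, for day 3 vs. day 0 (left) and day 14 vs. day 0 (right). On day 14 animal 9 is highest on both axes (1.94 and 5.39), animal 13 has a mitotic median of 0.64 with an erythroid median of −0.57, and animal 10 has −0.07 with 0.97.

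Markers of several other cell types moved with the mitotic genes, and none of the marker lists shares a gene with the 55 members. On day 14, 28 of 28 reticulocyte and erythroid precursor genes were up-regulated with a median of 2.48 (22 of 28 on day 3, median 1.36), and 0 were down at any p. Their summed level had a lowest, median and highest of 698, 6381 and 31245 FPKM on day 0, 4617, 17937 and 57689 on day 3, and 10000, 46734 and 88828 on day 14, higher on day 14 in 14 of 15 animals. ALAS2, the first enzyme of erythroid heme synthesis, was the most abundant at a mean of 6314 FPKM on day 0 and 27140 on day 14 (2.56 on the log2 scale, adjusted p = 1.31e-05). The animals with the highest erythroid medians on day 14, animals 9, 8 and 14 (5.39, 5.17 and 4.41), had mitotic medians of 1.94, 1.42 and 1.24, and animals 1, 7, 4, 2 and 5 (erythroid 0.84, 1.16, 1.16, 1.37 and 1.59) had mitotic medians of 0.74, 1.104, 0.23, 0.49 and 0.23. In animal 13 the erythroid median was −0.57 and 51 of 55 members were higher, and in animal 10 the erythroid median was 0.97 and 23 of 55 members were higher. Their part in the mitotic changes was not tested.

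Plasmablast and plasma cell genes were up in 8 and down in 1 of 14 on day 14 (median 0.54), with a summed level of 257, 343 and 502 FPKM on day 0 and 301, 582 and 952 on day 14, and the most abundant was the immunoglobulin joining chain JCHAIN (1.65 on the log2 scale, adjusted p = 5.57e-05). NK cell genes were up in 7 of 10 and down in 0 (median 1.11), with sums of 112, 249 and 648 on day 0 and 308, 777 and 1461 on day 14, and the most abundant was granzyme B, GZMB (1.49, adjusted p = 3.4e-05). Activated T cell genes were up in 4 of 12 and down in 0 (median 0.16), with sums of 93.7, 206 and 417 on day 0 and 207, 391 and 777 on day 14, and the most abundant was GZMK (0.98, adjusted p = 0.00163). Hematopoietic progenitor genes were up in 4 of 11 and down in 0 (median 0.41), with TAL1 (2.22 on the log2 scale, also in the erythroid list) the most abundant. Of their defining markers CD34 was at or below 0.256 FPKM and AVP below 0.1 FPKM in every library. In no list was the part played in the mitotic changes tested.

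The remaining lists are read against the 16.8% of all tested genes called up and the 19.3% called down on day 14. In this fit with no replicate block, the shares of the B and T cell lists are close to these. Mature neutrophil genes were down in 12 of 13 and up in 0 on day 14 (median −1.29; the most abundant was S100A9 at −1.50, adjusted p = 0.0136), with sums of 1448, 4054 and 42376 FPKM on day 0 and 550, 2223 and 4356 on day 14. Neutrophil precursor genes were down in 4 of 15 and up in 0 (median −0.92), B cell genes down in 2 of 11 and up in 0 (median −0.44), monocyte genes down in 3 of 9 and up in 0 (median 0.02), and T cell genes up in 2 of 12 and down in 0 (median −0.09). Platelet genes were up in 11 of 11 on day 3 (median 1.52) and in 3 of 11 on day 14 (median 0.62), and 6 of 11 were down between day 3 and day 14, unlike the mitotic genes, of which 30 rose over that interval. The most abundant genes of these lists were CAMP (−1.13, adjusted p = 0.0713), CD79B (−0.20, adjusted p = 0.466), LYZ (0.02, adjusted p = 0.967), CD3G (0.19, adjusted p = 0.245) and PPBP (1.24, adjusted p = 0.00808). Several of these day 14 counts moved with the model. The RNA integrity number as a covariate left 4 of 13 mature neutrophil genes down, 2 of 15 neutrophil precursor genes down, 1 of 12 activated T cell genes up, 0 of 12 T cell genes up, 1 of 9 monocyte genes down and 0 of 11 platelet genes up. With that covariate and a replicate block, these counts were 10, 3, 3, 0, 1 and 1 in the same order. With the block alone, 6 of 11 B cell genes were down and 3 of 12 T cell genes up. That fit called 8263 of the 18753 tested genes, with 20.7% of all tested genes up. With no scaling between libraries, activated T cell genes were 1 up and 3 down (median −0.17), T cell genes 0 up and 4 down (median −0.48), progenitor genes 1 up and 2 down, B cell genes 10 of 11 down and platelet genes 1 up. In that fit 7.79% of all tested genes were up and 41.8% down, with a median of −0.36. Plasmablast genes were then 5 up and 1 down and NK genes 5 up. Each 0 among the day 14 counts first given of the marker lists was also 0 at an unadjusted p under 0.05 (limma).

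**Figure D5:**
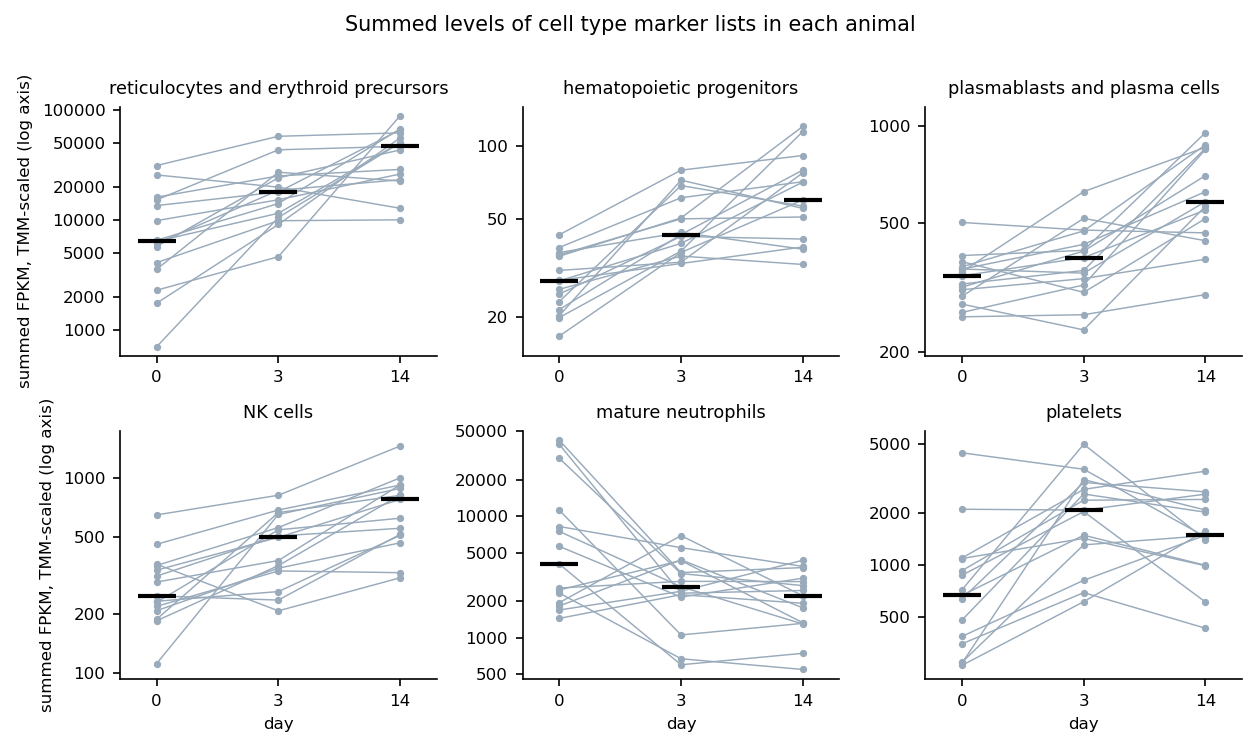
Summed FPKM after TMM scaling (log y axis) of 6 marker lists on days 0, 3 and 14, with a line for each of the 15 animals and a black bar at each day's median. Erythroid medians climb from 6381 to 17937 and 46734, NK medians from 249 to 777 by day 14, and mature neutrophil medians fall from 4054 to 2223.

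Calls depended on the model to a measured degree. With animals as a replicate block, 17, 48 and 33 members were up in the 3 comparisons, taken here in the order day 3 with day 0, day 14 with day 0 and day 14 with day 3, against 9.99%, 20.7% and 12.2% of all tested genes. The RNA integrity number as a covariate left 8, 38 and 23, against 3.61%, 10.5% and 3.9%, and the members that it dropped on day 14 were CCNA2, CCNB2, CDK1, ECT2, KIF22, NCAPD2, NCAPH2, SMC2 and UBE2C. Without scaling between libraries 9, 34 and 18 were up and 0, 1 and 3 down, where 3.79%, 7.79% and 3.23% of all tested genes were up and 4.72%, 41.8% and 35.2% down. The members whose day 14 vs. day 0 call was lost that way were NCAPD2, NCAPH2, NCAPG2, SMC2, SMC4, PLK4, CDK1, KIF20B, KIF22, KIF2C, CCNA2, UBE2C and ECT2. By day 3 they were KIF22, NCAPD2 and NCAPG2, and between day 3 and day 14 they were AURKA, BUB1, CENPK, ECT2, KIF20B, KIF4A, NUF2, PLK4, PRC1, SMC4, TOP2A and TPX2. Without the 7 libraries of over 24000 genes (10 libraries left of day 0, 14 of day 3 and 14 of day 14), 0, 43 and 31 members were up, against 1.51%, 15.6% and 7.55%. On day 3 vs. day 0 that 0 (limma) stood beside 15 up and 0 down at an unadjusted p under 0.05, a lowest adjusted p of 0.0612 and a member median of 0.30, so the day 3 calls were not made with these fewer libraries, which leave out 5 of the 15 of day 0.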

How the data were processed

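Whole-blood RNA of 15 animals on 3 days was sequenced as paired reads (TruSeq Stranded, RiboZero and globin depletion). The authors aligned reads with STAR to Chlorocebus_sabeus 1.1 and counted fragments with HTSeq (versions not given in the sources used here), and the deposited values are FPKM per gene and sample. The FPKM were whole multiples of a step per gene and library (100% of values within 0.1 of a whole number), which gave the fragments behind each value. 

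Genes over 0.5 CPM in at least 3 samples were tested with limma 3.58.1 (R 4.3.3) on log2(TMM-scaled FPKM + 0.1), with a mean per day over all 45 samples and no block. TMM factors were computed from the recovered fragments (30% of ratios and 5% of levels trimmed). Same-numbered samples are the same animal: deviations from the day means correlated at 0.328 on average within animals and at −0.023 between animals, and 41 of 45 within-animal pairs were over 0.1. Ratios of pairs were tested within animals with an exact sign-flip permutation test, adjusted over 39 tests, and a pair with SPC24 was left out. Alternatives were the replicate block, the RNA integrity number as covariate, other scalings, pseudocounts and filters, voom on recovered fragments, and leaving out animals or libraries.

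Members and lists were chosen with earlier results of these data known. Full statistics went to the member with the lowest and the highest adjusted p on day 14 vs. day 0 in each group and to members of pairs whose ratio changed. Of further lists the lowest adjusted p-values, opposite calls and the most abundant marker were named. The annotation given was of another assembly, so no coordinates are printed.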

Additional observations from a re-analysis of the deposited data

How the results depend on the processing

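No member called on day 14 vs. day 0 changed direction under the alternatives except NCAPH2, which was −0.15 without scaling between libraries. The count of members called on day 3 vs. day 0 went from 12 to 0 without the 7 libraries of over 24000 genes above 0, an alternative chosen after seeing the data, and lay between 9 and 15 when 1 animal was left out. With 1 animal left out, members called ranged from 45 to 49 on day 14 vs. day 0 and from 23 to 31 on day 14 vs. day 3. Over all genes, calls on day 3 vs. day 0 went from 2261 to 3565 with the replicate block, 1447 with the RNA integrity number and 668 without the 7 libraries. On day 14 vs. day 0 they went from 6772 to 4042 with the RNA integrity number and 4298 with it and the replicate block, and on day 14 vs. day 3 from 2694 to 4755 with the replicate block, 1285 with the RNA integrity number, 7206 without scaling between libraries and 1768 with no filter on low values. Leaving out 1 animal gave 1354 to 2350, 5933 to 6916 and 932 to 3386 calls. The first was lowest without animal 2 (1354), and the last was 932 without animal 8, 1340 without animal 2, 1456 without animal 12, 1550 without animal 3, 1552 without animal 9 and 1667 without animal 14. Ratios changed in 5 to 9 pairs on day 14 vs. day 0, 4 to 6 on day 3 vs. day 0 and 7 to 9 on day 14 vs. day 3 when 1 animal was left out (5 without animal 3 or animal 14 in the first), and in 8, 5 and 6 pairs with no replicate block. The cause of these shifts was not tested. Where libraries were left out, the smaller number of samples cannot be told apart from the traits of those libraries.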
